A study of Mus musculus with 4 samples.

Results

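The genes described here are 6 genes of ganglioside and hydroxylated sphingolipid synthesis, St3gal5, St6galnac6, B3galt5, B4galnt1, Ugcg and Fa2h. They were picked by symbol with their difference between large and small intestine already known. They are 6 of the 55487 genes in the tables, and all 6 were found and passed the filter on low counts, 4 of them through their LISC counts alone. RNA came from gut stem cells of mice 6 to 12 weeks old with the allele Lgr5-EGFP-IRES-creERT2, so that Lgr5, a gene of crypt stem cells, controls a fluorescent protein. Every group shares this reporter allele, and no treatment was given. Large-intestinal stem cells (LISC, 2 libraries) were sorted from crypts between cecum and rectum as reporter-positive cells. Small-intestinal stem cells (SISC, 2 libraries) were reporter-positive cells without CD24 staining, so the gates differed. Separate animals for the replicates are not stated, so every p-value below measures only the spread between these libraries.

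Glycosphingolipids are built on ceramide in the endoplasmic reticulum and the Golgi. Ugcg, glucosylceramide synthase, adds glucose to ceramide, and a galactosyltransferase turns the product into lactosylceramide. St3gal5 adds sialic acid to lactosylceramide and so makes GM3, the simplest common ganglioside, while B4galnt1 adds N-acetylgalactosamine to lactosylceramide or to GM3. St6galnac6 adds a further sialic acid to larger chains, and in human colon it works with the product of B3galt5, a galactosyltransferase of type 1 chains. Fa2h is the fatty acid 2-hydroxylase that puts a hydroxyl group on the acyl chain of ceramide. Gut epithelium is known for a high content of hydroxylated glycosphingolipids.

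In GRCm38 coordinates, St3gal5 (ENSMUSG00000056091) lies on the plus strand of chromosome 6 from 72097592 to 72154571. St6galnac6 (ENSMUSG00000026811) lies on chromosome 2 from 32599709 to 32620806, B3galt5 (ENSMUSG00000074892) on chromosome 16 from 96235801 to 96319859, and B4galnt1 (ENSMUSG00000006731) on chromosome 10 from 127165225 to 127172330. Ugcg (ENSMUSG00000028381) lies on chromosome 4 from 59189257 to 59222833 and Fa2h (ENSMUSG00000033579), on the minus strand, on chromosome 8 from 111345135 to 111393824. The 6 genes are thus on 6 chromosomes and no pair of them are neighbours.

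RefSeq's promoter table (GRCm38.p6) held 6 start sites for 4 of the 6 genes, St3gal5, St6galnac6, B3galt5 and Ugcg. The 250 bases before each start were searched on both strands for 6 short words. These were the box of TATA type TATAAA, the nuclear factor Y word CCAAT, the GC box GGGCGG, the GATA factor word AGATAA, the CDX factor word TTTATG and the HNF4 word CAAAGT. The sequences below are shown because St3gal5 and B3galt5 are at or near 0 counts in SISC. Cmah and Slc35a1 are shown as the called genes of the list of sialic acid and sugar nucleotide supply, described further on. Only bases before the first annotated exon base are printed, for windows with at least 200 such bases, and for Cmah the start with more matches. Capitals mark a match to a searched word on either strand.
St3gal5, chr6:72097358-72097591, plus strand: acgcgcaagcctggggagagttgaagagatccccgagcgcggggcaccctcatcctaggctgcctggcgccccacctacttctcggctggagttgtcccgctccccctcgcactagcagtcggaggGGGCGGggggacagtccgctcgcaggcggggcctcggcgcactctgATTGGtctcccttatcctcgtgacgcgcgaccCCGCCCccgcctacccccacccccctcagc
B3galt5, upstream start, chr16:96235551-96235800, plus strand: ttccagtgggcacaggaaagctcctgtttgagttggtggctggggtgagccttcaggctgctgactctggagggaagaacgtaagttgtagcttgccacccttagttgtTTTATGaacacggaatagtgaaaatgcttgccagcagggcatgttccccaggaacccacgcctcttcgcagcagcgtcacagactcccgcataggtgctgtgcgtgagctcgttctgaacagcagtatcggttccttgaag
B3galt5, middle start, chr16:96273263-96273473, plus strand: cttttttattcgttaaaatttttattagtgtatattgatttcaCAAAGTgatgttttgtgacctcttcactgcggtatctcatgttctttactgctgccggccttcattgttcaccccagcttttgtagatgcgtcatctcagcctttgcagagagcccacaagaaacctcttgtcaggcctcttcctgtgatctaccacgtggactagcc
Cmah, chr13:24414872-24415121, plus strand: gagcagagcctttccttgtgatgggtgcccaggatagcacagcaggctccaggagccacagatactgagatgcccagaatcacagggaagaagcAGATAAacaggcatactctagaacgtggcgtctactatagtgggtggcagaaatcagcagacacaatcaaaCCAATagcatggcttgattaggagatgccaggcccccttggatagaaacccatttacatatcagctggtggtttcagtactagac
Slc35a1, chr4:34687439-34687688, minus strand: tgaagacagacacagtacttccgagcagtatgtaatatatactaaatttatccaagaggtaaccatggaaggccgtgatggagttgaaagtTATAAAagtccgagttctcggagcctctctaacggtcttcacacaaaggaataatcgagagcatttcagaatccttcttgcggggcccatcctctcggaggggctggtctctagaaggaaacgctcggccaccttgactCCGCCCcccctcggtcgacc
The St3gal5 window held 2 GC boxes and 1 CCAAT word, and its 25 CpG dinucleotides were more than in 89.3% of the 32851 windows of the same length. The Ugcg window, all of it within an annotated exon, held 43 CpG and 2 GC boxes. In B3galt5, TTTATG stood before the upstream start and CAAAGT before the middle start, and the third start had none of the words and 20 CpG. Of the 250 bases before the RefSeq start of St6galnac6, 240 lie in annotated exons, and no searched word was found in the window. The gene St6galnac4 ends within it, at 32599698. Annotated St6galnac6 transcripts of 1013 and 875 bases begin at or just after this start. The other annotated transcripts of the gene begin at 32606961 or beyond, and no window was searched for them. The median window held 6 CpG. The words were found in 12.4% (TATAAA), 33.8% (CCAAT), 32.7% (GGGCGG), 9.99% (AGATAA), 10.8% (TTTATG) and 12.6% (CAAAGT) of all windows. A match is only a run of letters in this window.

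Library totals ran from 12795434 to 27227715 expected counts. Levels are given as CPM, a read count set against library size, with TMM scaling. A count of 0 allows up to 3 counts, which are 0.0937 to 0.278 CPM. A nuclear rRNA gene took 28.5% and 24.1% of counts in LISC and SISC replicate 1 but 0.0997% and 0.0917% in LISC and SISC replicate 2, so values within each replicate number are given as well. Reporter and epithelial genes fitted the labels: Lgr5 had 147 and 89.7 CPM in LISC and 114 and 173 CPM in SISC, and Epcam 945 and 1330 CPM in LISC and 803 and 1304 CPM in SISC. Cd24a, which encodes the antigen gated in SISC alone, had 328 and 503 CPM in LISC and 341 and 407 CPM in SISC. Over 8 stem cell genes the sums were 3097 and 3879 CPM in LISC and 3463 and 3707 CPM in SISC. Epcam and Krt8 made up most of each sum, so the sums do not measure stem cell content. Smoc2 had 148 and 106 CPM in LISC and 278 and 389 CPM in SISC. Axin2 had 123 and 96.7 CPM in LISC and 290 and 295 CPM in SISC. Cdx1 and Cdx2 had their higher levels in LISC, and the groups overlapped in the other genes. None of the 8 was called by edgeR, and DESeq2 called Smoc2 and Axin2 higher in SISC. Marker lists of other epithelial cells were summed as well. Summed over 7 goblet genes, libraries had 3325 and 5655 CPM in LISC and 2051 and 449 CPM in SISC. Over 9 absorptive genes the sums were 283 and 1198 CPM in LISC and 97.8 and 77.0 CPM in SISC. Car1 and Car4 made up most of the LISC sums, Car4 was called higher in LISC, Sis was called higher in SISC, and Alpi, Fabp1 and Apoa1 had their higher levels in SISC. Over 4 tuft genes the sums were 55.4 and 85.4 CPM in LISC and 15.2 and 3.56 CPM in SISC. Over 6 Paneth genes they were 51.0 and 14.3 CPM in LISC and 8629 and 1428 CPM in SISC, and over 5 enteroendocrine genes 44.8 and 42.3 CPM in LISC and 157 and 26.7 CPM in SISC, where the groups overlapped. Of these goblet, tuft and enteroendocrine genes edgeR called none, and of the Paneth genes it called Defa30 higher in SISC. DESeq2 called Agr2, Spink4, Dclk1 and Trpm5 higher in LISC, and Cck and all 6 Paneth genes higher in SISC. Of the absorptive genes it called Car1, Car4 and Aqp8 higher in LISC and Alpi, Fabp1, Apoa1 and Sis higher in SISC. Neuron and glia genes summed to 1.58 and 3.61 CPM in LISC and 0.728 and 5.81 CPM in SISC, with Sox10 and S100b at 0 counts in all 4 libraries. Immune genes stayed at or below 5.53 CPM in LISC and 1.31 CPM in SISC, and stromal and endothelial genes at or below 1.17 CPM in LISC and at or below 0.406 CPM in SISC. What these other cells add to the results below was not tested. In bulk RNA, more cells that express a gene and more RNA per cell cannot be told apart.

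Of the 6 genes, St3gal5, St6galnac6, B3galt5 and Fa2h were close to absent in SISC and clearly read in LISC, while Ugcg and B4galnt1 were read in every library. These 4 were among the genes called higher in LISC by edgeR's quasi-likelihood test (adjusted p below 0.05). Over all 14165 genes tested the test called 311, or 2.2%, with 1.45% higher in LISC and 0.741% higher in SISC. None of the 6 was called higher in SISC. DESeq2 also called 4 of the 6 higher in LISC, and over all its genes it called 6.96%, with 4.64% higher in LISC and 2.32% higher in SISC. The 6 genes were chosen on this very contrast, so nothing is read from that count, and their values are given as a description with no p-value.

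**Figure D1:**
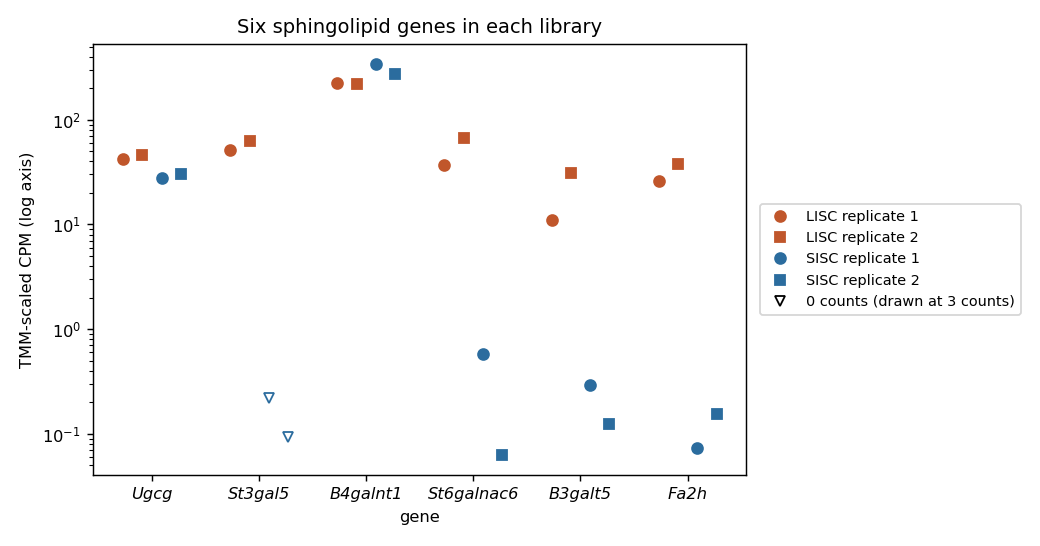
TMM-scaled CPM (log axis) of the 6 genes in each library, LISC left of SISC, with circles for replicate 1 and squares for replicate 2. Open triangles stand for 0 counts and are drawn at the CPM of 3 counts. St3gal5, St6galnac6, B3galt5 and Fa2h lie at 11.0 CPM or above in LISC and at 0.582 CPM or less in SISC, whereas Ugcg and B4galnt1 lie close together in the 4 libraries.

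Ugcg, the enzyme at the head of the glucosylceramide route, was read at 42.2 and 46.4 CPM in the LISC libraries and at 27.5 and 30.6 CPM in the SISC libraries. Both LISC values were above both SISC values, and the gap was small. The log2 difference, LISC over SISC, was 0.61 ± 0.23 (SE), or a 1.53-fold difference, and it was 0.62 within replicate 1 and 0.60 within replicate 2. TPM is scaled by gene length and has the same total in each library. The rRNA in replicate 1 thus lowers the TPM of its other genes. In TPM the groups overlapped, at 7.16 and 15.77 TPM in LISC and 5.50 and 9.50 TPM in SISC. Within each replicate number LISC had the higher TPM.

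St3gal5, the GM3 synthase, had 551 and 1839 counts in LISC, which is 51.1 and 63.2 CPM, and 0 counts in both SISC libraries. The gene was thus read at a moderate level in both LISC libraries and not at all in SISC. Against 3 counts per library, LISC was at least 366-fold higher in St3gal5, at least 234-fold within replicate 1 and at least 675-fold within replicate 2. The bound was a log2 of 8.52 over all libraries and 9.24 without SISC replicate 1. Gene models that overlap St3gal5 took few reads: Gm29438 on the same strand had 18 and 1 counts in LISC and 0 and 1 in SISC, and the antisense gene 4933431G14Rik had 0 counts in every library.

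B4galnt1, which makes GM2 from GM3 and the asialo lipid GA2 from lactosylceramide, was the most abundant of the 6. It was read at 226 and 219 CPM in LISC and at 344 and 271 CPM in SISC. Both LISC values were below both SISC values. The log2 difference was −0.47 ± 0.32 (SE), and −0.61 within replicate 1 and −0.31 within replicate 2. In TPM the groups overlapped, at 69.30 and 133.35 TPM in LISC and 119.06 and 150.37 TPM in SISC. Within each replicate number LISC had the lower TPM. Its mean TPM was above that of 94.1% of tested genes in LISC and of 95.4% in SISC. B4galnt1 overlaps Slc26a10 on the other strand, which had at most 1 count per library.

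St6galnac6, a sialyltransferase of the GalNAc alpha-2,6 family, had 402 and 1952 counts in LISC and 8 and 2 counts in SISC. That is 37.2 and 67.1 CPM in LISC and 0.582 and 0.0625 CPM in SISC. LISC replicate 2 was the highest and SISC replicate 2 the lowest, so the size of the difference varied with the replicate number. The log2 difference was 7.66 ± 0.95 (SE), or 202-fold, and 6.00 within replicate 1. Within replicate 2 the ratio was 1074-fold (exact 95% counting interval 297 to 8875). Without SISC replicate 1 the log2 difference was 9.59. The neighbouring St6galnac4, which ends 11 bases before St6galnac6 begins, had 7.88 and 6.22 CPM in LISC and 1.60 and 0.0937 CPM in SISC. Its log2 difference of 3.14 ± 1.24 did not pass edgeR's test (adjusted p = 0.383).

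B3galt5 had 119 and 900 counts in LISC and 4 counts in each SISC library, which is 11.0 and 30.9 CPM in LISC against 0.291 and 0.125 CPM in SISC. As a ratio of CPM, the LISC libraries differed more from each other here than for any other of the 6 genes. The log2 difference was 6.78 ± 0.81 (SE), or 110-fold, and it was 5.24 within replicate 1, 7.95 within replicate 2 and 5.80 without LISC replicate 2. The tables also give a gene length, the mean transcript length weighted by estimated isoform use. For B3galt5 it was 5147.00 bases in LISC replicate 1 and 5183.09 bases in LISC replicate 2. The annotated transcript of 5147 bases, B3galt5-201, starts at 96280798, beside the third RefSeq start, and the transcript from the upstream start has 5282 bases. In the SISC libraries the length was 5147.00 bases as well, from 4 counts each.

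Fa2h, the hydroxylase, had 282 and 1102 counts in LISC and 1 and 5 counts in SISC, which is 26.1 and 37.9 CPM in LISC and 0.0728 and 0.156 CPM in SISC. All SISC reads of this gene together numbered 6. The log2 difference was 7.91 ± 0.49 (SE), or 241-fold, and 7.92 within replicate 2. Within replicate 1 the ratio was 359-fold (exact 95% counting interval 63.9 to 14235). Without SISC replicate 2 the log2 difference was 8.63. The weighted gene length was 2342 and 2297 bases in LISC, below the 2492 bases of the coding transcript Fa2h-201. In SISC it was 1971 bases from 1 count and 2492 bases from 5 counts, the lengths of single annotated transcripts.

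Ranked by TPM in LISC, the order was B4galnt1 (101 ± 45.3 TPM), St6galnac6 (35.7 ± 29.4), St3gal5 (27.3 ± 16.1), Fa2h (15.2 ± 10.7), Ugcg (11.5 ± 6.09) and B3galt5 (4.64 ± 4.59 TPM; SD, n = 2 each). St6galnac6 and St3gal5 changed places between the LISC libraries. Fa2h stood above Ugcg in both, at 7.69 against 7.16 TPM in LISC replicate 1 and 22.79 against 15.77 TPM in LISC replicate 2. The SDs are the spread between 2 LISC libraries that differ in rRNA content, and they do not measure the order within a library. In SISC the order was B4galnt1 (135 ± 22.1 TPM), Ugcg (7.50 ± 2.83), St6galnac6 (0.595 ± 0.771), Fa2h (0.0550 ± 0.0354) and B3galt5 (0.0350 ± 0.00707 TPM), with St3gal5 at 0. In SISC replicate 2 Fa2h stood above St6galnac6 and in SISC replicate 1 below B3galt5, so the order of these low genes is not fixed. The last 4 of these levels rest on at most 8 counts per library. For St6galnac6, SISC replicate 1 had 1.14 TPM at a weighted gene length of 654 bases. In SISC replicate 2 it had 0.05 TPM at 1530 bases. B4galnt1 made up 59.6% and 48.5% of the summed TPM of the 6 genes in LISC, and 94.7% and 94.0% in SISC.

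Lactosylceramide is a branch point, since B4galnt1, St3gal5, B3gnt5 and A4galt all encode transferases that act on it. B3gnt5 starts the lacto series and A4galt the globo series. Of the TPM summed over these 4 genes, B4galnt1 took 79.9% and 75.6% in LISC and 99.7% and 99.6% in SISC. St3gal5 took 18.3% and 21.9% in LISC and 0% in both SISC libraries. LISC libraries therefore held 0.229 and 0.290 TPM of St3gal5 per TPM of B4galnt1. B3gnt5 had 1.27 and 3.67 TPM in LISC and 0.35 and 0.50 TPM in SISC, a log2 difference of 2.57 ± 0.41 that missed edgeR's threshold (adjusted p = 0.0579). A4galt stayed at or below 0.69 TPM in every library. Shares of transcripts are not shares of lipid, which was not measured.

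**Figure D2:**
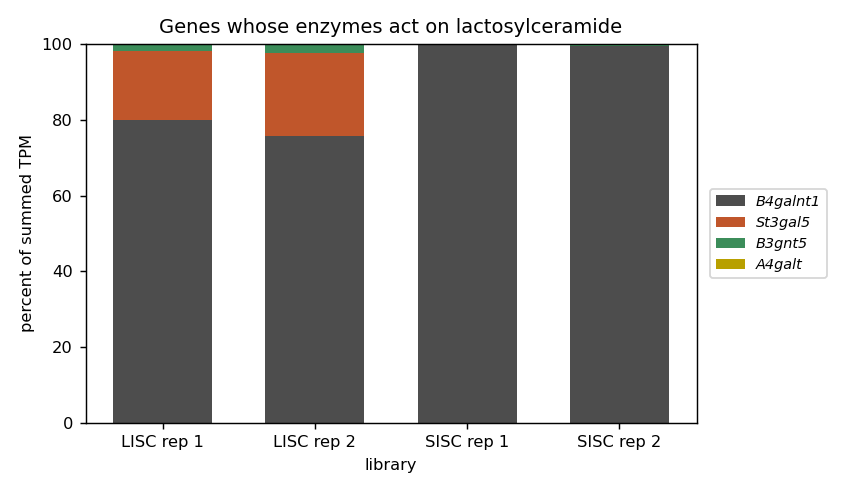
Percent of the summed TPM of B4galnt1, St3gal5, B3gnt5 and A4galt in each library, LISC left of SISC, stacked to 100. St3gal5 fills 18.3% and 21.9% of the LISC bars and none of the SISC bars, which B4galnt1 fills to at least 99.6%.

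The other genes of sphingolipid metabolism were taken as 8 lists of 99 genes in all, with the 6 genes left out. Of these, 85 were tested, and edgeR called Cmah, Slc35a1 and B3galt2 (3 genes) higher in LISC and 0 genes higher in SISC, or 3.53% against 2.2% of all genes tested. An unadjusted p below 0.05 was reached by 29, of which 27 had the higher level in LISC and 2 in SISC. That is to be set beside 13.4% of all genes tested. DESeq2 called 19 of the 85, and Sptssb, which was too low for the edgeR test. Its 20 calls were all higher in LISC. Without SISC replicate 1, edgeR called 5 higher in LISC. The median log2 difference of the 85 genes was 0.35, and −0.02 over all genes tested. Of the 3 edgeR calls, Cmah and B3galt2 passed the filter on low counts through their LISC counts alone. They could only be called higher in LISC. Among the 27 genes above with the higher level in LISC, Ugt8a, Cers3 and Neu4 also passed it through their LISC counts alone. As the lists were chosen with earlier results of these data known, nothing is read from these calls beyond their values.

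**Figure D3:**
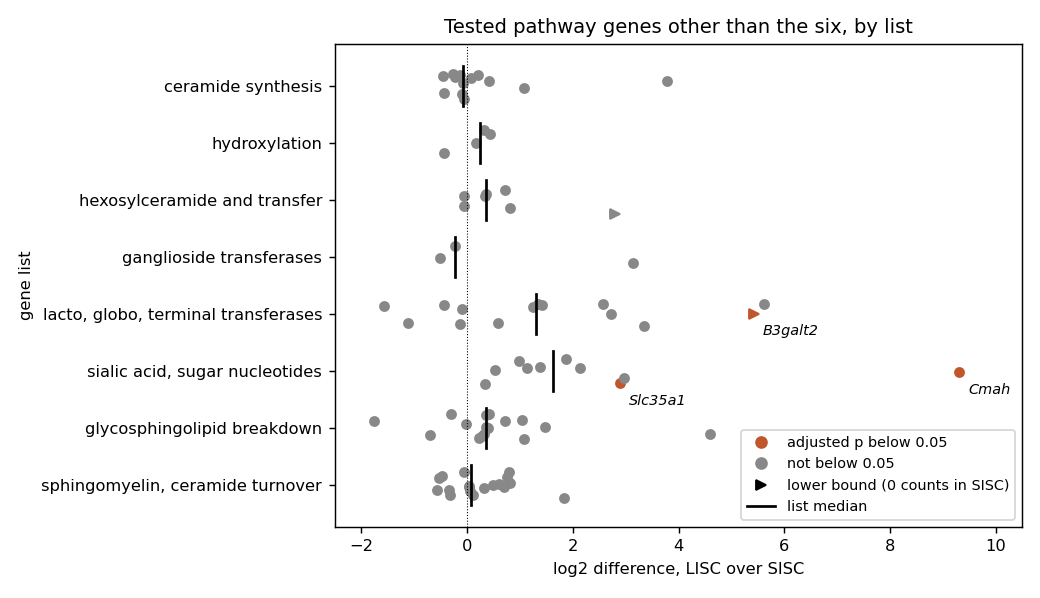
Log2 difference, LISC over SISC, of the 85 tested pathway genes other than the 6, by list, with the list median as a bar. Orange points passed edgeR's test, and arrowheads are lower bounds for genes with 0 counts in SISC. The supply list, with Cmah and Slc35a1, lies to the right of 0 throughout, and the ceramide list has its median at −0.07. Cmah is drawn at its fitted value of 9.30, which rests on 2 counts in SISC.

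Sialic acid and sugar nucleotide supply had the largest share of calls, at 2 of 10 genes (8 at an unadjusted p below 0.05, and DESeq2 called 7), and all 10 log2 differences were positive (0.34 to 9.30, median 1.62; median 1.57 within replicate 1 and 1.71 within replicate 2). Slc35a1, which carries CMP-sialic acid into the Golgi, was read at 210 and 180 CPM in LISC against 23.4 and 29.3 CPM in SISC. Both LISC libraries were far above both SISC libraries. The log2 difference was 2.89 ± 0.31 (edgeR adjusted p = 0.0269), a 7.39-fold rise, and the call was lost without SISC replicate 1 (2.72, adjusted p = 0.0576) and without SISC replicate 2 (3.04, adjusted p = 0.0638). Cmah, the hydroxylase that turns CMP-N-acetylneuraminic acid into its glycolyl form, had 335 and 1025 counts in LISC and 2 and 0 counts in SISC. The SISC libraries were at or near 0, and the ratio of pooled counts was 780-fold (exact 95% counting interval 216 to 6448; edgeR adjusted p = 0.0218). The SISC reads of Cmah came from replicate 1 alone, so the ratio rests on that library. Within replicate 2, where SISC had 0 counts, LISC was at least 376-fold higher.

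Gne, whose product starts sialic acid synthesis, had 269 and 299 CPM in LISC and 73.7 and 55.2 CPM in SISC (log2 2.14 ± 0.32), and missed the threshold (edgeR adjusted p = 0.0536). Nans, the sialic acid synthase, had 205 and 328 CPM in LISC and 68.4 and 78.4 CPM in SISC (log2 1.86 ± 0.37, edgeR adjusted p = 0.0937). DESeq2 called both. With the replicate number as a block, edgeR called them too (adjusted p = 0.0037 for Gne and 0.0046 for Nans), and a stricter filter called Gne (adjusted p = 0.0426). Cmas, which activates sialic acid, had 94.0 and 180 CPM in LISC and 62.3 and 126 CPM in SISC, so its groups overlapped (log2 0.54 ± 0.51, edgeR adjusted p = 0.872). Nanp, a phosphatase of the same route, differed by 0.34 ± 0.43 (adjusted p = 0.944). The goblet marker sums given above were higher in LISC than in SISC within both replicate numbers, although Zg16, Clca1 and Tff3 were lower in LISC within replicate 1, and their part in the supply genes was not tested.

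**Figure D4:**
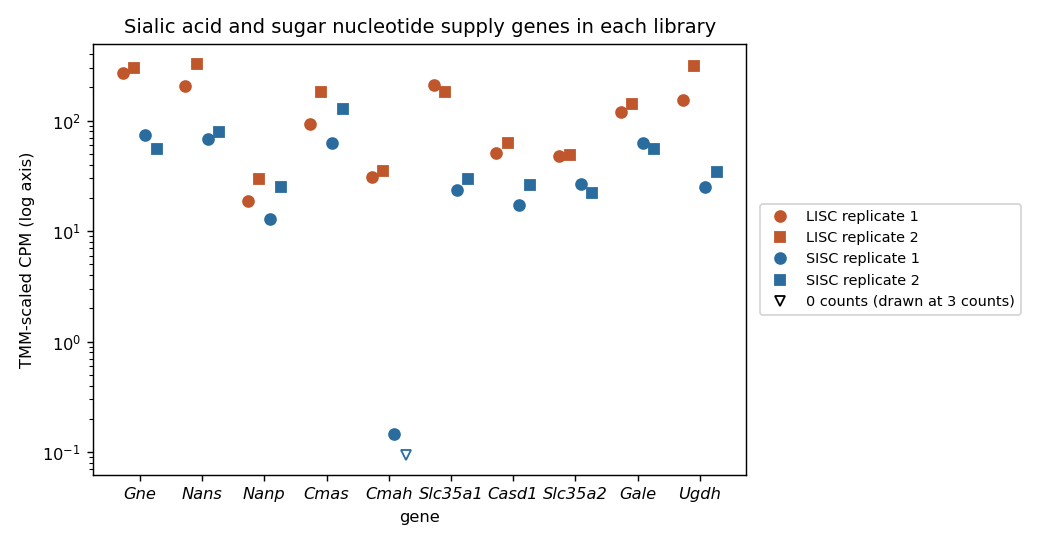
TMM-scaled CPM (log axis) of the 10 supply genes in each library, LISC left of SISC, circles for replicate 1 and squares for replicate 2. The open triangle marks 0 counts of Cmah, drawn at 3 counts. Slc35a1 lies at 180 CPM or above in LISC and at 29.3 CPM or less in SISC, while Cmas and Nanp overlap between the groups.

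Among 14 tested transferases of the lacto and globo series and of chain ends, 1 was called (9 at an unadjusted p below 0.05, and DESeq2 called 6). B3galt2, a relative of B3galt5, had 54 and 243 counts in LISC and 0 counts in SISC, which puts LISC at least 42.8-fold higher (adjusted p = 0.0410, edgeR). Its call was lost without LISC replicate 2 (adjusted p = 0.0643). B3galt2 lies within Cdc73 on the other strand, which had 408 and 1231 counts in LISC and 606 and 1127 in SISC. Whether counting used strand is not stated, and what reads of Cdc73 add to the counts of B3galt2 was not tested. The most abundant genes of the list did not pass. B4galnt2, which makes the Sda antigen, had 88.05 and 198.75 TPM in LISC and 76.45 and 108.64 TPM in SISC (edgeR adjusted p = 0.537). St6galnac2 had 26.28 and 40.39 TPM in LISC and 29.07 and 60.78 TPM in SISC (edgeR adjusted p = 0.766). Over the 14 genes, the median of the log2 differences was 1.30.

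Of 9 further ganglioside transferases, 6 were too low to test, among them the GD3 synthase gene St8sia1, with 0 counts in LISC and 0 and 2 counts in SISC. The 3 tested genes were not called (0 at an unadjusted p below 0.05, and DESeq2 called 0). B3galt4, which makes GM1 from GM2, had 3.42 and 5.13 TPM in LISC and 4.43 and 5.94 TPM in SISC (log2 −0.23 ± 0.35, edgeR adjusted p = 0.959). St3gal1 had 1.24 and 3.46 TPM in LISC and 4.64 and 1.23 TPM in SISC, and its log2 difference of −0.51 ± 0.83 changed sign without SISC replicate 1 (1.30). The list's median was −0.23, but 1.48 within replicate 2.

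Upstream of the branch point, none of 13 tested genes of ceramide synthesis was called (2 at an unadjusted p below 0.05, and DESeq2 called 1 of the 13), and their median log2 difference was −0.07. Sptssa, a small subunit of serine palmitoyltransferase, had 62.61 and 121.85 TPM in LISC and 66.38 and 135.39 TPM in SISC (edgeR adjusted p = 0.9995). Ormdl2 of the same list had a log2 difference of 0.42 ± 0.27 (edgeR adjusted p = 0.707). Degs2, which hydroxylates the sphingoid base, had 84.50 and 143.49 TPM in LISC and 72.23 and 101.31 TPM in SISC, a log2 difference of 0.44 ± 0.27 without a call (adjusted p = 0.682 by edgeR). The list of hydroxylation partners, 4 genes with Cyb5a, Cyb5r3 and Hacl1, had no call and a median of 0.25. In it 0 genes reached an unadjusted p below 0.05, and DESeq2 called 0. Cyb5a, the most abundant of them, had a log2 difference of −0.43 ± 0.32 (edgeR adjusted p = 0.783). Among 7 genes of hexosylceramide handling no call was made either (1 at an unadjusted p below 0.05, and DESeq2 called 1), with a median of 0.37. The sulfatide sulfotransferase Gal3st1 and the glycolipid transfer protein Gltp were not called. Gal3st1 differed by 0.34 ± 0.26 on the log2 scale (edgeR adjusted p = 0.795) and Gltp by 0.37 ± 0.28 (edgeR adjusted p = 0.796).

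On the breakdown side, 16 tested genes of lysosomal and membrane glycosphingolipid hydrolysis had no edgeR call (5 at an unadjusted p below 0.05, and DESeq2 called 3) and a median log2 difference of 0.35. Psap, the precursor of the saposin activators, was their most abundant member, at 175.63 and 413.57 TPM in LISC and 90.88 and 185.20 TPM in SISC (log2 1.08 ± 0.37, edgeR adjusted p = 0.288). DESeq2 called Psap higher in LISC (adjusted p = 0.0306), as did edgeR with the replicate block (adjusted p = 0.0225). Ctsa, the protective protein of lysosomal sialidase, differed by −0.03 ± 0.27 (edgeR adjusted p = 0.9995). The 18 tested genes of sphingomyelin and ceramide turnover had no edgeR call (4 at an unadjusted p below 0.05, and DESeq2 called 1) and a median of 0.08. Their most abundant genes, Smpd3 and Sgpp2, had log2 differences of 0.03 and 0.10 (edgeR adjusted p = 0.9995 and 0.993).

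Of the nearest tested genes on each side of the 6, 12 in all, 1 was called, against 2.2% of all genes tested. The called gene passed the filter on low counts through its LISC counts alone, so it could only be called higher in LISC. The gene 9130221F21Rik, 55064 bases before St3gal5, had 53 and 198 counts in LISC and 0 counts in SISC, which puts LISC at least 37.6-fold higher (adjusted p = 0.0403, edgeR). On the other side of St3gal5, Atoh8 had 8.25 and 6.05 CPM in LISC and 12.9 and 10.2 CPM in SISC (edgeR adjusted p = 0.511).

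By the smallest Euclidean distance of log2(TPM + 1) over the 4 libraries, the genes whose values were most like those of St3gal5 were Foxd2 (distance 0.576) and Clca4a (0.641). For St6galnac6 they were Hoxb9 (0.602) and Hoxb8 (0.786), for B3galt5 Sval1 (0.151) and Tcf7l1 (0.181), and for Fa2h Hoxa10 (0.375) and Hoxa11os (0.491). For B4galnt1 they were Mlf2 (0.316) and Fkbp8 (0.321), and for Ugcg Plekhf2 (0.0531) and Zmpste24 (0.162). Foxd2 had 11.05 and 30.95 TPM in LISC and 0 TPM in SISC, and Hoxa10 had 9.29 and 27.71 TPM in LISC and 0.09 and 0.06 TPM in SISC. The 4 points of each gene come from the same 4 libraries, whose depth and rRNA content they share.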

How the data were processed

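Per the labels' protocols, poly(A) RNA of 2 LISC and 2 SISC samples went through a strand-keeping library kit. The submitters' processing notes list STAR 2.7.2b, RSEM 1.2.31 and the build GRCm38 (mm10). For the annotation release, trimming and strand setting, the sources used here give nothing. The authors deposited expected counts from RSEM, which splits a read between the genes it could come from (7.25% of genes were more than 0.001 from a whole number in a library). TPM, also deposited by the authors, corrects for effective gene length and has the same total in each library, so the rRNA in replicate 1 lowers the TPM of its other genes. Expected counts were rounded. Symbols and coordinates came from GENCODE vM21, which named 55141 of 55487 identifiers.

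The test of LISC against SISC was edgeR 4.0.16 under R 4.3.3 (TMM, quasi-likelihood, filterByExpr with a minimum count of 10, Benjamini-Hochberg adjustment over 14165 genes, threshold 0.05). Alternatives used DESeq2 1.42.0. Standard errors are approximate, from the fold change and its F statistic. A fold against 0 counts is a bound against 3 counts per library, and with 1 to 3 counts an exact 95% interval is given. Both cover counting error only. The fits were tested on simulated counts. Members and lists were chosen with earlier results of these data known. Named beside the 6 genes were up to 4 called genes per list and its 2 most abundant uncalled ones. The 2 closest profiles per gene were named as well, but only some of the nearest tested neighbours. Others with values (B3gnt5, A4galt, Cmas, Nanp, St8sia1, and genes of the closing section) were chosen after their values were seen.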

Additional observations from a re-analysis of the deposited data

How the results depend on the processing

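Genes called higher in LISC numbered 769 by DESeq2, 942 where low counts were not filtered, and 166 to 338 with 1 library left out (338 without SISC replicate 1). Genes called higher in SISC numbered 384 with DESeq2, 465 with no filter, and 79 to 149 with 1 library left out. Other pathway genes called higher in LISC numbered 20 with DESeq2, 18 with no filter and 2 to 5 with 1 library left out, and those called higher in SISC numbered 2 with no filter. Their median log2 difference was 0.30 to 0.47 with 1 library left out. With the replicate number as a block 1015 genes were called higher in LISC, against 524 in SISC, of which 23 and 1 were other pathway genes. Deviations of libraries with the same number correlated at 0.65, but with 2 pairs and no shared animal or day in the labels the pairing is not known. With 1 library left out, log2 differences were 8.01 to 9.24 for St3gal5 (bounds), 6.44 to 9.59 for St6galnac6, 5.80 to 7.34 for B3galt5, −0.65 to −0.29 for B4galnt1, 0.53 to 0.68 for Ugcg and 7.63 to 8.63 for Fa2h. Within replicate 1 they were 7.87 (a bound) for St3gal5 and 5.24 for B3galt5, and within replicate 2 they were 9.40 (a bound) for St3gal5, 10.07 for St6galnac6 and 7.95 for B3galt5. On TPM with a pseudocount of 1, which lowers the differences of low genes, they were 4.69 for St3gal5, 4.33 for St6galnac6, 2.15 for B3galt5, 0.50 for Ugcg and 3.77 for Fa2h, and with 0.1 they were 4.68 for B3galt5 and 6.45 for Fa2h. The direction of genes near 0 turned: with a library left out, Sptssa ran from −0.27 to 0.14, St3gal1 from −1.33 to 1.30, Ctsa from −0.13 to 0.048 and Smpd3 from −0.40 to 0.44. St3gal1 was 0.0047 with the block, and Ctsa 0.0068 with a stricter filter. Where no cause is named, the cause was not tested. St3gal5, St6galnac6, B3galt5 and Fa2h had at most 8 counts in a SISC library, so depth limits the size of their folds.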

Other observations

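Several pathway genes outside the described set reached an unadjusted p below 0.05 but missed edgeR's threshold, and they were picked here after their values were seen. Fut2, the fucosyltransferase of the secretor type, had 34.9 and 42.9 CPM in LISC and 1.82 and 0.0312 CPM in SISC (log2 5.61 ± 1.38, edgeR adjusted p = 0.150, DESeq2 0.0723). The related Fut1 had 7.13 and 6.87 CPM in LISC and 1.16 and 0.281 CPM in SISC (log2 3.34 ± 0.80, edgeR adjusted p = 0.141), and DESeq2 called it. Ugdh, which makes UDP-glucuronic acid, had 155 and 311 CPM in LISC and 25.2 and 34.1 CPM in SISC (log2 2.97 ± 0.47, edgeR adjusted p = 0.0580), and DESeq2 called it. Ugt8a, the galactosylceramide synthase, had 16 and 20 counts in LISC and 0 counts in both SISC libraries. That puts LISC at least 6.96-fold higher (edgeR adjusted p = 0.140), and DESeq2 called Ugt8a. It passed the filter on low counts through its LISC counts alone, so it could only come out higher in LISC. The sialyltransferase gene St3gal4 had 3.24 and 8.18 CPM in LISC and 22.0 and 12.6 CPM in SISC (log2 −1.57 ± 0.55, edgeR adjusted p = 0.309). St3gal6 had 10.47 and 20.38 CPM in LISC and 26.6 and 40.8 CPM in SISC (log2 −1.12 ± 0.43, edgeR adjusted p = 0.358), and DESeq2 called neither.

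None of the 4 sialidase genes passed edgeR's test, and DESeq2 called none of them. Neu3, a plasma membrane sialidase that acts on gangliosides, had 6 and 10 counts in LISC and 14 and 63 counts in SISC (log2 −1.77 ± 0.78, edgeR adjusted p = 0.458). Neu4 had 7 and 18 counts in LISC and 0 and 1 counts in SISC (edgeR adjusted p = 0.176). It passed the filter on low counts through its LISC counts alone. Neu1 had 20.1 and 23.5 CPM in LISC and 17.4 and 18.2 CPM in SISC (edgeR adjusted p = 0.824), and Neu2 had 3.43 and 2.92 CPM in LISC and 5.38 and 4.90 CPM in SISC (edgeR adjusted p = 0.668). The alkaline ceramidase gene Acer1 had 25.6 and 35.4 CPM in LISC and 5.89 and 11.1 CPM in SISC (log2 1.83 ± 0.41, edgeR adjusted p = 0.121), and DESeq2 called it.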
